A study of Mus musculus with 16 samples.

Results

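The 9 genes described here encode enzymes that build or activate polyunsaturated fatty acids: the desaturase genes Fads1, Fads2, Fads3 and Fads6, the elongase genes Elovl1, Elovl2 and Elovl5, and the long-chain acyl-CoA synthetase genes Acsl3 and Acsl4. They were taken by name from the 24411 gene symbols of the count tables, with earlier results of these data known. All 9 were among the 12901 genes with enough reads to test. Their polyadenylated RNA was measured in mouse liver, in 16 libraries that form 4 groups of 4. PF mice were pair-fed without ethanol and received vehicle, and EtOH mice received vehicle on an ethanol diet after the NIAAA model, which combines chronic feeding with a binge. EtOH+MBV and PF+MBV mice were kept on those diets and treated with matrix-bound nanovesicles (MBV), vesicles embedded in the extracellular matrix. The sources used here do not give the genotype, strain, sex and age of the mice, the source and dose of the MBV or the length of the diets.

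Mammals cannot make linoleic and alpha-linolenic acid and take them from food. In the endoplasmic reticulum, mostly of hepatocytes, Fads2 introduces the first new double bond into these acids, Elovl5 lengthens the product and Fads1 adds the next double bond, which yields arachidonic and eicosapentaenoic acid. Elovl2, with Elovl5, extends these further on the way to docosahexaenoic acid. Fads3 desaturates sphingoid bases, Fads6 is a less studied relative, and Elovl1 lengthens saturated and monounsaturated acyl chains for sphingolipids. Acsl3 and Acsl4 couple fatty acids to coenzyme A before they enter lipids, and Acsl4 prefers arachidonic acid. Genes of this route are known targets of the sterol regulatory factor SREBP-1c, encoded by Srebf1, and of the fatty acid receptor PPAR alpha, encoded by Ppara.

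RefSeq promoter windows (GRCm38.p6, from 250 bases before a start site to 50 after it) were found for 8 of the 9 genes, not for Fads1. The stretches from 150 to 3 bases before the start site are printed for 4 of the genes whose level changed and whose stretch holds no annotated exon of the gene: Fads3 and Elovl2, which fell on the ethanol diet, and Elovl5 and Acsl3, which also differed between MBV and vehicle on the pair-fed diet. Capitals mark exact matches, on either strand, to the CCAAT box (CCAAT) and the GC box (GGGCGG), which can share bases with each other. The stretches lie at chr19:10041398-10041545 on the plus strand for Fads3, chr13:41220406-41220553 on the minus strand for Elovl2, chr9:77917215-77917362 on the plus strand for Elovl5 and chr1:78657675-78657822 on the plus strand for Acsl3.
Fads3: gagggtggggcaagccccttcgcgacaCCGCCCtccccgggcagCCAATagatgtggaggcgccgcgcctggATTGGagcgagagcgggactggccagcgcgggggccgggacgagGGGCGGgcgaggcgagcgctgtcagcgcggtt
Elovl2: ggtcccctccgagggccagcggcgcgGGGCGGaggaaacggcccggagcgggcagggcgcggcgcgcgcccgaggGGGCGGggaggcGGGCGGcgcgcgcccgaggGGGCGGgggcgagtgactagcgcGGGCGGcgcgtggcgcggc
Elovl5: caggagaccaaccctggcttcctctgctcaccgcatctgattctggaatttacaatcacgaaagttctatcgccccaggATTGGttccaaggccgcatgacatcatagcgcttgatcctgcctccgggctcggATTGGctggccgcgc
Acsl3: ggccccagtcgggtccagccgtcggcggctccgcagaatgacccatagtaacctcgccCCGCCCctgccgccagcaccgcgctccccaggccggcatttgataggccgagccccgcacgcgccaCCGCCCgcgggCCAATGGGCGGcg
Fads3, Elovl5 and Acsl3 hold CCAAT boxes in these stretches, and the printed Elovl2 stretch holds GC boxes alone. Elovl2 has another window, at chr13:41220113-41220412, which holds neither box and is not printed. Over the 10 windows of the 8 genes, CCAAT was found in 4 windows and the GC box in 8, against 37.4% and 35.7% of all 32851 windows in the table. A sterol regulatory element spelled TCACNCCAC, which holds neither box, was found in none of the 10 windows and in 1.24% of all windows. The direct repeat of AGGTCA with a single base between the copies, searched on both strands like the others, was in none of the 10 and in 0.0396% of all windows. These matches describe the letters of the windows and are not evidence of binding.

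Between 15.3 and 20.5 M reads per library fell in genes, and 15021 to 15856 genes had at least 1 read. Each of the 9 genes had between 48 (Fads3) and 31069 (Elovl5) reads in a library. Levels are CPM (reads of a gene per M reads in genes) with libraries scaled by TMM, and errors of levels are SD (n = 4). Each adjusted p is that of the edgeR quasi-likelihood test, corrected after Benjamini and Hochberg over all 12901 genes. Errors of log2 values are SE, computed back from that test as the absolute log2 fold change over the square root of its F statistic. The labels number the libraries of a group as repeats without saying that each came from its own mouse, so the spread behind the p-values is that between these libraries only and may be technical. In bulk tissue, fewer cells of a type and less RNA per cell cannot be told apart. Unmapped reads made up 14.49% to 19.89% in the pair-fed and 11.57% to 13.83% in the ethanol libraries, reads with several map positions 4.571% to 5.352% and 5.431% to 7.583%, and ambiguous reads 1.348% to 1.391% and 1.403% to 1.693%. These shares did not overlap between the diets, and their part in the diet differences was not tested. Summed hepatocyte markers stood at 89843 to 119779 CPM in PF and 82025 to 132786 CPM in EtOH. With MBV the sums were 83508 to 97124 CPM on the pair-fed diet and 110715 to 123847 CPM on the ethanol diet, without overlap. EtOH 1 stood apart from the other EtOH libraries in the summed macrophage markers, at 558 CPM against 191 to 260.0 CPM, and in the summed stellate cell markers, at 412 CPM against 220 to 285 CPM. Each result was also computed without EtOH 1 and EtOH+MBV 1. For the 9 genes the values without these libraries are given for most calls or differences that changed.

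**Figure D1:**
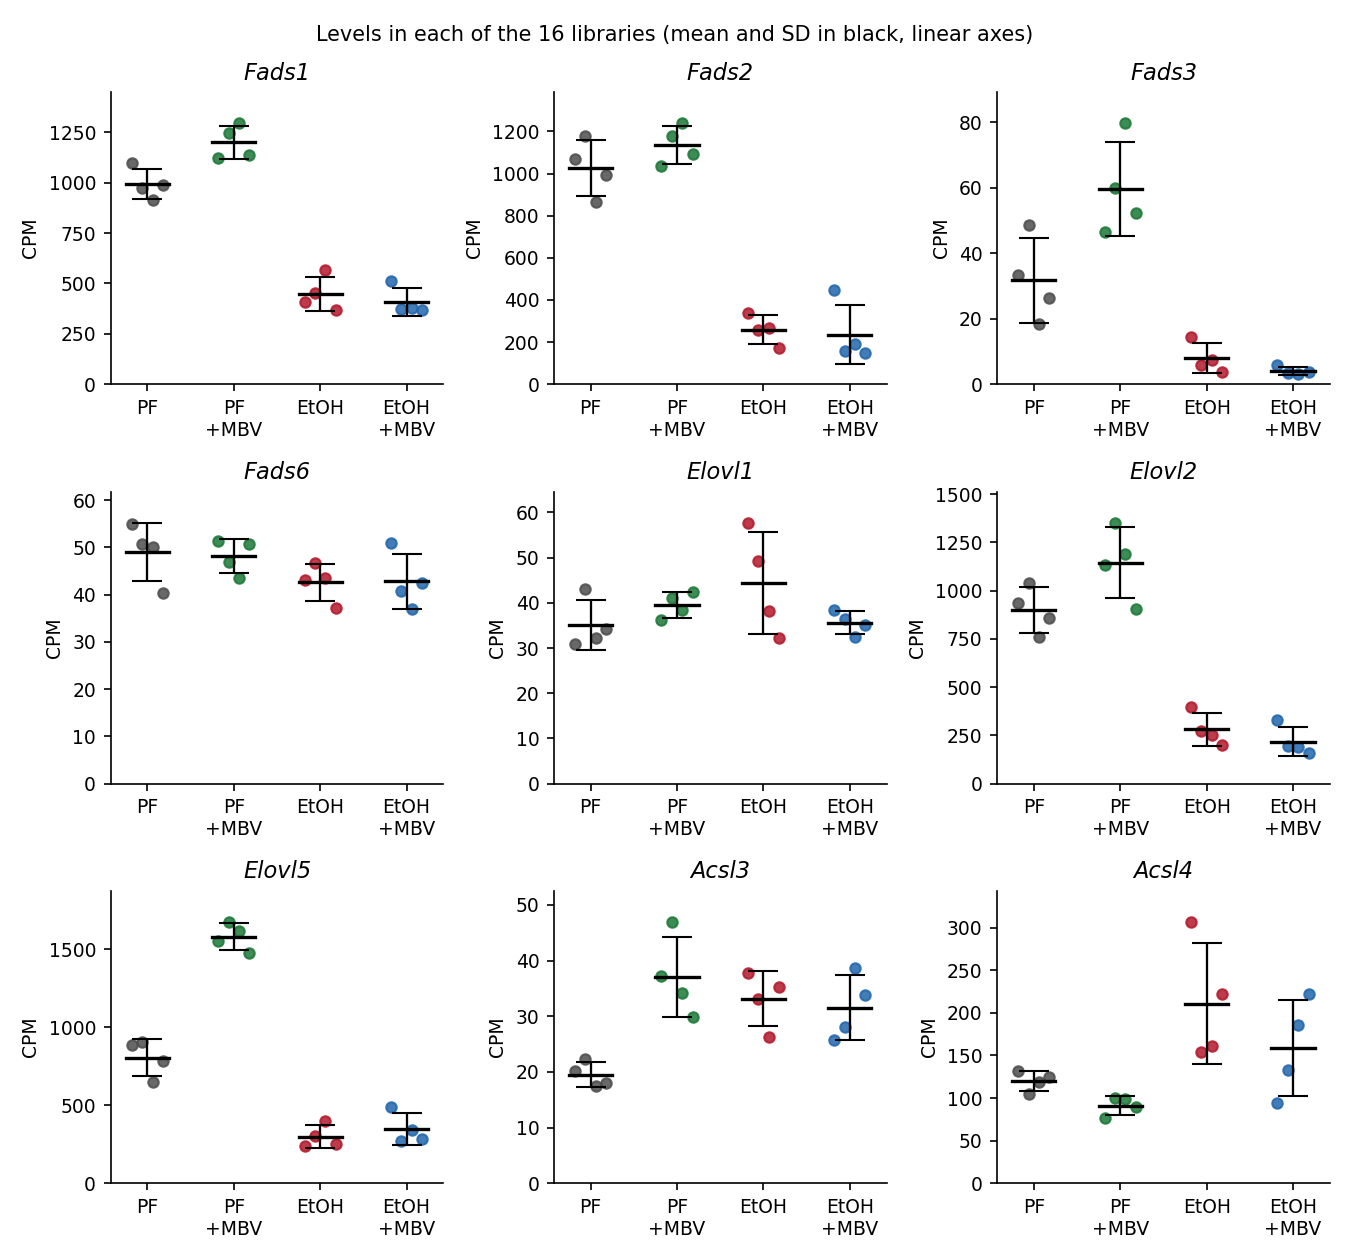
Levels of the 9 genes in CPM (vertical axes, linear, from 0) in each library of PF, PF+MBV, EtOH and EtOH+MBV (points), with the mean and SD of each group in black. Fads1, Fads2, Fads3, Elovl2 and Elovl5 were lower in every ethanol library than in any pair-fed library, Elovl5 was highest in PF+MBV, and Acsl3 was lowest in PF.

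The first comparison asks what the ethanol diet did to these genes in vehicle-treated liver. Of the 9 genes, 5 fell and 2 rose in EtOH against PF: the 3 clustered desaturase genes Fads1, Fads2 and Fads3 and the elongase genes Elovl2 and Elovl5 were between 2.21-fold and 3.96-fold lower, and the synthetase genes Acsl3 and Acsl4 were 1.70-fold higher and 1.76-fold higher. Among all tested genes 20.4% rose and 19.5% fell. The libraries of the 2 groups did not overlap for the same 7 genes, against 32.3% of all genes. The median log2 fold change of the 9 genes was -1.15, beside 0.01 over all tested genes.

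Fads2, the enzyme of the first desaturation, stood at 1069, 1177, 864 and 996 CPM in the PF libraries and at 339.7, 257, 265 and 174 CPM in EtOH. All 4 EtOH libraries lay below the lowest PF library, and the mean of 259 ± 67.7 CPM against 1026 ± 131 CPM was 3.96-fold lower (log2 fold change -1.99 ± 0.29 SE, adjusted p = 8.84e-05). Fads1, which makes arachidonic acid, stood at 1099, 975, 915 and 987 CPM in PF and at 410.0, 452, 566 and 369 CPM in EtOH. Here too the groups were apart, with EtOH 3 the highest of its group, and the level was 2.21-fold lower (log2 fold change -1.15 ± 0.14 SE, adjusted p = 2.37e-05). Fads3, the sphingoid base desaturase, was much less abundant, at 33.3, 48.7, 18.5 and 26.2 CPM in PF and 14.5, 5.88, 7.45 and 3.87 CPM in EtOH. PF 2 was the highest and EtOH 4 the lowest of these libraries, and Fads3 was 3.94-fold lower (log2 fold change -1.98 ± 0.35 SE, adjusted p = 0.000424). Fads6 did not pass the test: its levels of 40.4 to 55.0 CPM in PF and 37.2 to 46.6 CPM in EtOH overlapped (log2 fold change -0.20 ± 0.11 SE, adjusted p = 0.168).

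Elovl5, which lengthens the product of Fads2, stood at 883, 904, 648 and 780.2 CPM in PF and at 241, 302, 399 and 250.1 CPM in EtOH. The highest EtOH library, EtOH 3, remained below the lowest PF library, PF 3, and Elovl5 was 2.70-fold lower (log2 fold change -1.43 ± 0.20 SE, adjusted p = 4.5e-05). Elovl2, the elongase of the later steps, stood at 938, 1039, 762 and 859 CPM in PF and at 398, 271, 252 and 203 CPM in EtOH. The gap between the groups was wider than either group's range, and Elovl2 was 3.20-fold lower (log2 fold change -1.68 ± 0.23 SE, adjusted p = 5.07e-05). Elovl1, the elongase of saturated chains, stood at 31.0, 43.2, 32.2 and 34.2 CPM in PF and 57.7, 49.2, 38.2 and 32.3 CPM in EtOH. EtOH 1 and EtOH 2 were the highest, EtOH 3 and EtOH 4 lay within the PF range, and the difference did not pass the test (log2 fold change 0.34 ± 0.15 SE, adjusted p = 0.0838); it did without PF 2 (log2 fold change 0.45, adjusted p = 0.0312) and without EtOH 4 (0.46, adjusted p = 0.0158). Without EtOH 1 and EtOH+MBV 1 it was 0.19 (adjusted p = 0.26).

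The synthetase genes went the other way. Acsl3, found on lipid droplets and the endoplasmic reticulum, stood at 20.2, 22.3, 17.4 and 18.0 CPM in PF and at 37.8, 33.2, 26.3 and 35.2 CPM in EtOH, 1.70-fold higher (log2 fold change 0.77 ± 0.16 SE, adjusted p = 0.00129). Acsl4, which activates arachidonic acid, stood at 132, 104, 118 and 124 CPM in PF and at 306, 154, 161 and 222 CPM in EtOH, 1.76-fold higher (log2 fold change 0.82 ± 0.24 SE, adjusted p = 0.0123). All EtOH libraries were above all PF libraries for both genes, and EtOH 1 was the highest for both. With EtOH 1 and EtOH+MBV 1 left out, the log2 fold change of Acsl4 was 0.59 (adjusted p = 0.00851) and that of Acsl3 0.71 (adjusted p = 0.00176). The falls of Fads2, Fads3 and Elovl2 were larger without these libraries, at -2.13, -2.45 and -1.89, and those of Fads1 and Elovl5 slightly smaller, at -1.09 and -1.33.

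A small overlap with other genes touches a pair of these values. On GRCm38 with the GENCODE M21 annotation, Acsl3 (chr1:78657825-78707743, plus strand) shares 244 exon bases, 5.6% of its exon length, with Utp14b on the same strand. Elovl1 (chr4:118428093-118432953, plus strand) shares 53 bases, 1.94% of its exon length, with Cdc20 on the opposite strand, and these libraries do not separate strands. The other 7 genes share no exon bases with another gene: Elovl2 lies at chr13:41182381-41220405 (minus strand), Elovl5 at chr9:77917364-77984519 (plus strand), Acsl4 at chrX:142317993-142390535 (minus strand) and Fads6 at chr11:115279622-115297663 (minus strand), and the places of Fads1, Fads2 and Fads3 follow with their cluster.

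The same dietary contrast was made between the 2 groups that received MBV. Again Fads1, Fads2, Fads3, Elovl2 and Elovl5 fell on the ethanol diet, between 2.95-fold and 14.8-fold, and Acsl4 rose. Of the 9 genes, 5 fell and 1 rose in EtOH+MBV against PF+MBV, where 16.7% of all tested genes fell and 19.2% rose. The libraries did not overlap for the 5 falls and for 39% of all tested genes. The groups are others than in the first contrast, and the median log2 fold change of the 9 genes was -1.56, beside -0.01 over all genes.

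Fads2 stood at 1034, 1177, 1239 and 1093 CPM in PF+MBV and at 445, 156, 192 and 150.1 CPM in EtOH+MBV. EtOH+MBV 1 was far above the other libraries of its group, and Fads2 was 4.82-fold lower (log2 fold change -2.27 ± 0.30 SE, adjusted p = 5.94e-05). Fads1 stood at 1125, 1245, 1295 and 1137 CPM in PF+MBV and at 511, 374, 378 and 367 CPM in EtOH+MBV. EtOH+MBV 1 was again the highest of its group and yet below every PF+MBV library, and Fads1 was 2.95-fold lower (log2 fold change -1.56 ± 0.15 SE, adjusted p = 5.44e-06). Fads3 stood at 46.5, 59.8, 79.7 and 52.4 CPM in PF+MBV and at 5.92, 3.35, 3.06 and 3.64 CPM in EtOH+MBV. This was the largest difference of any of the 9 genes in the 4 pairwise contrasts, 14.8-fold lower (log2 fold change -3.89 ± 0.38 SE, adjusted p = 7.55e-06), and rests on 48 to 108 reads in each EtOH+MBV library.

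Elovl2 stood at 1131, 1352, 1189 and 907 CPM in PF+MBV and at 331, 194, 191 and 158 CPM in EtOH+MBV, 5.24-fold lower (log2 fold change -2.39 ± 0.24 SE, adjusted p = 7.77e-06). Elovl5 stood at 1554, 1671, 1617 and 1472 CPM in PF+MBV and at 489, 272, 342 and 283 CPM in EtOH+MBV, 4.55-fold lower (log2 fold change -2.19 ± 0.20 SE, adjusted p = 4.71e-06). Neither elongase had an ethanol library near the pair-fed range. With both first ethanol libraries left out, the log2 fold changes were -1.68 for Fads1, -2.76 for Fads2, -4.14 for Fads3, -2.65 for Elovl2 and -2.39 for Elovl5, each larger than with them.

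Acsl4 stood at 76.5, 99.5, 99.2 and 89.7 CPM in PF+MBV and at 93.9, 133, 186 and 223 CPM in EtOH+MBV, 1.74-fold higher (log2 fold change 0.80 ± 0.24 SE, adjusted p = 0.0156). EtOH+MBV 1 lay within the PF+MBV range, so the groups overlapped. The call was lost when libraries were scaled by their totals (log2 fold change 0.65, adjusted p = 0.0775), without EtOH+MBV 4 (0.59, adjusted p = 0.0711) and without PF+MBV 1 (0.72, adjusted p = 0.0505). It was kept in 13 of 16 alternatives, over which the log2 fold change ran from 0.59 to 0.99. Acsl3 did not pass the test with MBV given, at 37.1, 46.9, 34.3 and 29.8 CPM in PF+MBV and 25.8, 28.1, 38.7 and 33.7 CPM in EtOH+MBV (log2 fold change -0.23 ± 0.16 SE, adjusted p = 0.259), or -0.13 without both first ethanol libraries. Fads6, at 43.5 to 51.4 and 37.0 to 50.8 CPM, and Elovl1, at 36.2 to 42.5 and 32.4 to 38.4 CPM, did not pass it either (adjusted p = 0.264 and 0.458).

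**Figure D2:**
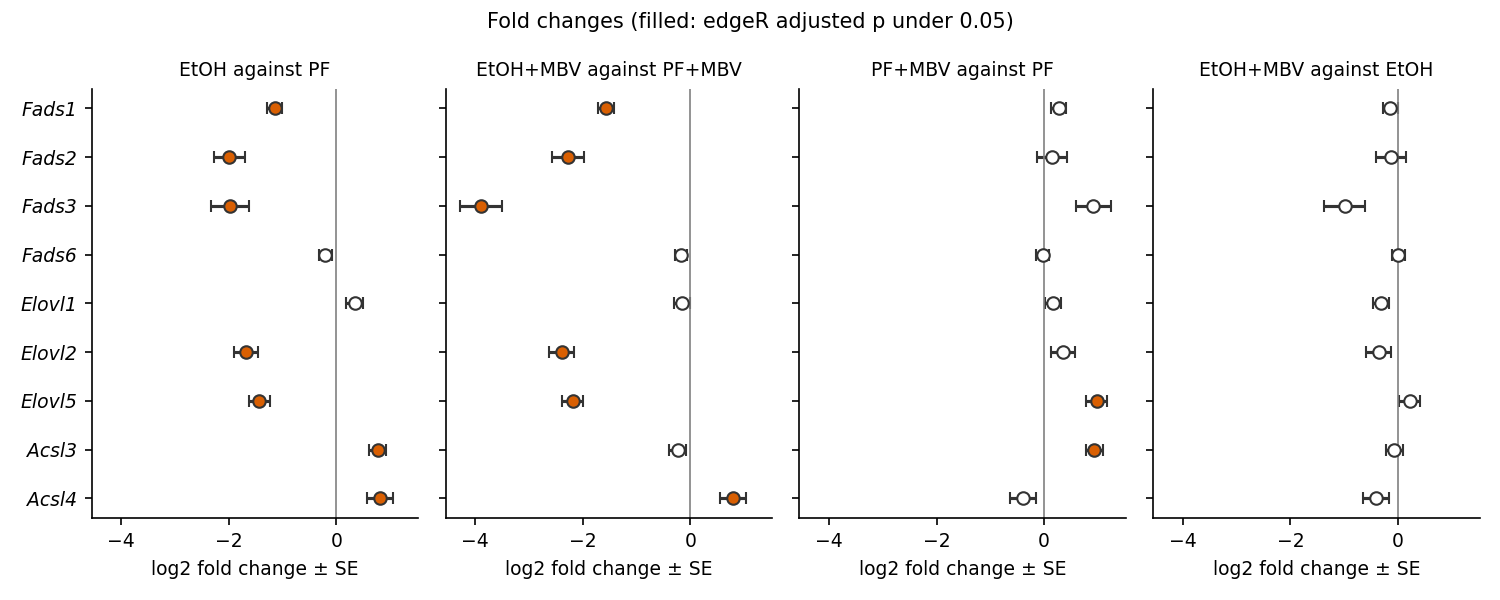
Log2 fold changes with their SE (horizontal axes) of the 9 genes (rows) in the 4 pairwise contrasts, with filled points for an edgeR adjusted p under 0.05. Fads1, Fads2, Fads3, Elovl2 and Elovl5 lie to the left in both diet contrasts, Elovl5 and Acsl3 are the filled points in PF+MBV against PF, and no point is filled in EtOH+MBV against EtOH.

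On the pair-fed diet, MBV went with more RNA of Elovl5 and Acsl3. These 2 of the 9 genes rose in PF+MBV against PF and none fell, where 0.752% of all tested genes rose and 1.03% fell. Elovl5 stood at 1554, 1671, 1617 and 1472 CPM with MBV, against 883, 904, 648 and 780.2 CPM in PF, a mean of 1579 ± 85.7 CPM against 804 ± 117 CPM. The lowest PF+MBV library, PF+MBV 4, was above the highest PF library, PF 2, and Elovl5 was 1.96-fold higher (log2 fold change 0.97 ± 0.19 SE, adjusted p = 0.019). The call was lost when PF 1, PF 3, PF 4, PF+MBV 1 or PF+MBV 2 was left out, with log2 fold changes of 1.01, 0.88, 0.95, 0.98 and 0.95 and adjusted p-values of 0.0623, 0.0796, 0.0553, 0.0562 and 0.0626. Acsl3 had a mean of 37.0 ± 7.22 CPM in PF+MBV against 19.5 ± 2.21 CPM in PF, 1.90-fold higher (log2 fold change 0.93 ± 0.16 SE, adjusted p = 0.0101), and its call was kept under every alternative run for this contrast.

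The other 7 genes did not pass the test in PF+MBV against PF. Fads1 did not overlap, with all PF+MBV libraries above the highest PF library (log2 fold change 0.27 ± 0.14 SE, adjusted p = 0.357). Acsl4 did not overlap either, with all PF+MBV libraries below the lowest PF library (log2 fold change -0.39 ± 0.24 SE, adjusted p = 0.437). Counting Elovl5 and Acsl3, 4 of the 9 genes had libraries that did not overlap, against 15% of all tested genes. Fads3, at 46.5, 59.8, 79.7 and 52.4 CPM against 33.3, 48.7, 18.5 and 26.2 CPM, overlapped only through PF 2 and PF+MBV 1 (log2 fold change 0.91 ± 0.33 SE, adjusted p = 0.161). When the model was fitted to these 2 groups alone, Fads3 and Acsl4 passed the test as well (adjusted p = 0.0461 and 0.0351). With both first ethanol libraries left out of the fit, Fads3 passed too (log2 fold change 0.91, adjusted p = 0.0309). Fads2 (log2 fold change 0.15 ± 0.28 SE, adjusted p = 0.848), Elovl2 (log2 fold change 0.35 ± 0.23 SE, adjusted p = 0.478), Elovl1 (log2 fold change 0.17 ± 0.15 SE, adjusted p = 0.627) and Fads6 (log2 fold change -0.03 ± 0.11 SE, adjusted p = 0.938) did not pass it either.

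On the ethanol diet, none of the 9 genes passed the test for MBV. Among all tested genes, 1.24% rose and 1.45% fell in EtOH+MBV against EtOH, and the libraries did not overlap for 7.6% of all genes and for none of the 9. At an unadjusted p under 0.05, edgeR found 1 of the 9 genes, DESeq2 2 and limma voom 0, and after adjustment each of these tools called 0. The gene with the largest difference was Fads3, at 3.99 ± 1.31 CPM in EtOH+MBV against 7.93 ± 4.63 CPM in EtOH (log2 fold change -0.99 ± 0.38 SE, adjusted p = 0.143), and it was called when EtOH 4 was left out (log2 fold change -1.22, adjusted p = 0.0482). The log2 differences were -0.14 ± 0.14 for Fads1, -0.14 ± 0.28 for Fads2, -0.36 ± 0.23 for Elovl2 and 0.22 ± 0.19 for Elovl5, with adjusted p-values of 0.613, 0.828, 0.382 and 0.549. Those of Acsl3, Acsl4, Elovl1 and Fads6 were -0.07 ± 0.16, -0.41 ± 0.24, -0.32 ± 0.15 and 0.01 ± 0.11, with adjusted p-values of 0.837, 0.337, 0.237 and 0.978. These values moved when the first library of each ethanol group was left out. Without both, the log2 differences were -0.31 for Fads1, -0.48 for Fads2, -0.77 for Fads3, -0.42 for Elovl2 and -0.20 for Elovl1 (adjusted p = 0.201, 0.114, 0.253, 0.149 and 0.449). The signs of Elovl5 (-0.09), Acsl4 (0.01), Acsl3 (0.09) and Fads6 (-0.08) turned, with adjusted p-values of 0.805, 0.986, 0.81 and 0.747.

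Whether MBV acted differently on the 2 diets was tested with the interaction of diet and MBV. Of the 9 genes, 2 had a lower MBV effect on the ethanol diet than on the pair-fed diet and none a higher one, where 2.09% and 2.02% of all tested genes were called in these directions. For Acsl3 the log2 MBV effect was 0.93 on the pair-fed and -0.07 on the ethanol diet, a difference of -0.998 ± 0.22 (SE, adjusted p = 0.0239). For Fads3 it was 0.91 and -0.99, a difference of -1.91 ± 0.50 (SE, adjusted p = 0.0425). The Acsl3 call was kept in 20 of 23 alternatives and lost without PF 1, PF 3 or PF+MBV 2 (adjusted p = 0.0552, 0.0571 and 0.0507). The Fads3 call was kept in 9 of 23, with adjusted p-values of 0.00499 to 0.092 over all of them. It was lost on leaving out any library but PF 2, EtOH 3, EtOH 4 or EtOH+MBV 1. It was also lost with library totals (adjusted p = 0.0544) and with limma voom (adjusted p = 0.0696). For Elovl5 the difference of -0.76 ± 0.27 did not pass (adjusted p = 0.112), nor did that of -0.71 ± 0.32 for Elovl2 (adjusted p = 0.195). With both first ethanol libraries left out these 2 elongases passed as well, at -1.06 (adjusted p = 0.0116) and -0.76 (adjusted p = 0.0372). The other differences did not pass with or without these libraries: -0.41 and -0.58 for Fads1, -0.28 and -0.63 for Fads2, -0.02 and 0.41 for Acsl4, -0.49 and -0.37 for Elovl1, and 0.04 and -0.05 for Fads6.

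Read in order of their levels, the 9 genes showed a few patterns. Elovl5 ran from EtOH and EtOH+MBV, which did not differ beyond their spread, up through PF to PF+MBV. Fads1, Fads2, Fads3 and Elovl2 had the same ends, with EtOH+MBV and EtOH at the bottom and PF and PF+MBV at the top, and neither pair differed beyond its spread by the test. Acsl3 was low in PF alone, at 19.5 ± 2.21 CPM, and the other groups, at 31.6 ± 5.82 CPM in EtOH+MBV, 33.1 ± 4.94 CPM in EtOH and 37.0 ± 7.22 CPM in PF+MBV, were not separated from their neighbours by any contrast made. Acsl4 ran from PF+MBV at 91.2 ± 10.8 CPM through PF at 119.8 ± 11.7 CPM and EtOH+MBV at 159 ± 56.8 CPM to EtOH at 211 ± 70.7 CPM, where neither MBV contrast passed the test and both diet contrasts did. Fads6 and Elovl1 showed no order beyond the spread, with group means of 42.6 to 49.1 CPM and 35.1 to 44.4 CPM.

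Levels of different genes were compared per kb of exon. In PF, Fads2 was the most abundant at 312 ± 39.8 CPM per kb, followed by Elovl5 at 228 ± 33.2, Elovl2 at 227 ± 29.7 and Fads1 at 207 ± 16.0 CPM per kb. The last 3 of these lay within each other's spread. Acsl4, at 22.2 ± 2.16 CPM per kb, Elovl1, at 12.9 ± 2.02, Fads3, at 8.36 ± 3.40, Fads6, at 7.37 ± 0.923, and Acsl3, at 4.47 ± 0.508 CPM per kb, were far less abundant. In PF+MBV, Elovl5 led at 448 ± 24.3 CPM per kb, ahead of Fads2 at 345 ± 27.4 CPM per kb. In EtOH the 4 abundant genes had come closer, with Fads1 at 93.4 ± 17.7, Elovl5 at 84.6 ± 20.6, Fads2 at 78.6 ± 20.5 and Elovl2 at 70.8 ± 21.02 CPM per kb, and Acsl4 stood at 39.0 ± 13.1 CPM per kb.

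Ratios within a library do not depend on how libraries are scaled, and they show which genes of a pair moved further. The ratio of Fads2 to Fads1 CPM was 0.972, 1.21, 0.944 and 1.01 in PF and 0.828, 0.570, 0.468 and 0.471 in EtOH. It was 0.919, 0.946, 0.956 and 0.961 in PF+MBV and 0.871, 0.418, 0.508 and 0.409 in EtOH+MBV. Every ethanol library was below every pair-fed library, so Fads2 lost more than Fads1 on the ethanol diet, and the first library of either ethanol group was the nearest to the pair-fed range. The ratio of Acsl4 to Acsl3 CPM was 6.55, 4.68, 6.79 and 6.90 in PF and 2.06, 2.12, 2.90 and 3.00 in PF+MBV. The highest PF+MBV library, at 3.00, was below every library of the other groups, with 4.64 to 8.09 in EtOH and 3.64 to 6.60 in EtOH+MBV. The ratio of Elovl5 to Elovl2, chosen after the values were seen, was 0.851 to 0.941 in PF and 1.24 to 1.62 in PF+MBV, without overlap. In EtOH it ran from 0.605 in EtOH 1 to 1.59 in EtOH 3, the widest range of any group, and in EtOH+MBV from 1.41 to 1.79.

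**Figure D3:**
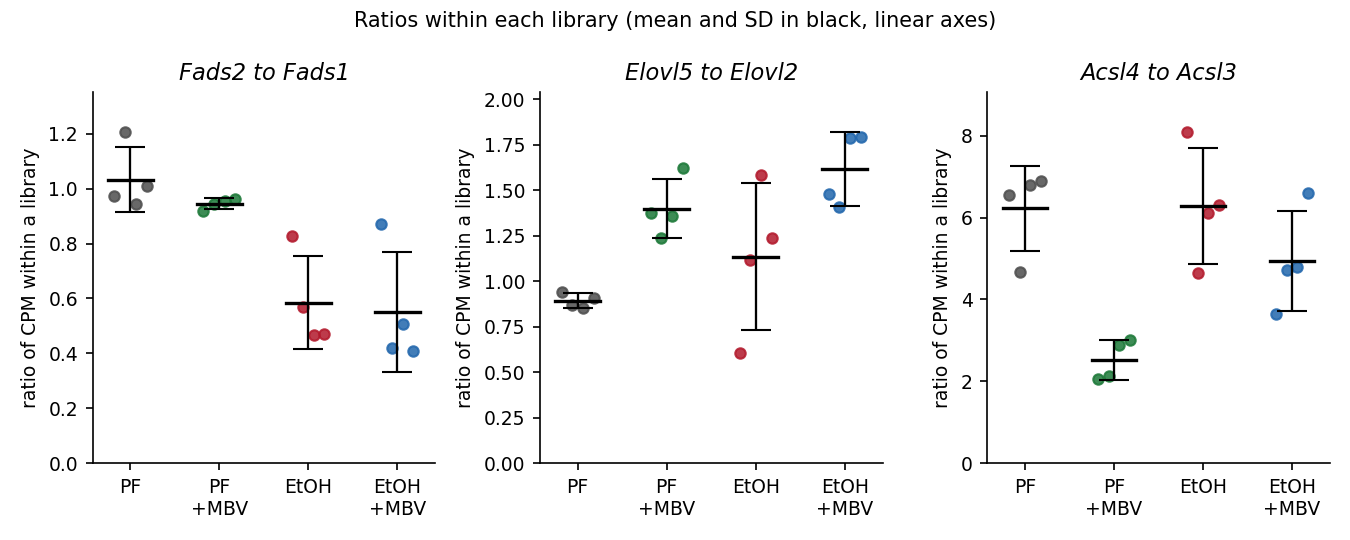
Ratios of CPM within each library (vertical axes, no unit, linear, from 0) for Fads2 to Fads1, Elovl5 to Elovl2 and Acsl4 to Acsl3, with points for libraries and the mean and SD of each group in black. Fads2 to Fads1 is lower in both ethanol groups, Elovl5 to Elovl2 is 0.851 to 0.941 in PF, and Acsl4 to Acsl3 is lowest in PF+MBV.

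Fads1 (chr19:10182888-10196877, plus strand), Fads2 (chr19:10062765-10101746, minus strand) and Fads3 (chr19:10041569-10060110, plus strand) are neighbours on chromosome 19, with the start sites of Fads2 and Fads3 at 81.1 kb and 141 kb from that of Fads1. The 3 genes fell together on the ethanol diet, and most of the genes around them did not. Of 5 tested neighbours in EtOH against PF, 4 rose: Fth1, the ferritin heavy chain (log2 fold change 0.90 ± 0.14 SE, adjusted p = 0.000126), Myrf, a membrane-bound transcription factor gene (log2 fold change 0.68 ± 0.14 SE, adjusted p = 0.00136), Fen1, a flap endonuclease (log2 fold change 1.25 ± 0.37 SE, adjusted p = 0.0129), and Tmem258, a subunit of the oligosaccharyltransferase (log2 fold change 0.48 ± 0.15 SE, adjusted p = 0.0169). Rab3il1, which starts 181 kb from Fads1 beyond Fads3, fell (log2 fold change -1.34 ± 0.30 SE, adjusted p = 0.00221). In this contrast 20.4% of all tested genes rose and 19.5% fell. In EtOH+MBV against PF+MBV, Fth1 rose (log2 fold change 0.49 ± 0.14 SE, adjusted p = 0.0111), Rab3il1 fell (log2 fold change -0.92 ± 0.30 SE, adjusted p = 0.0268) and the other 3 did not pass the test. With 1 rise and 1 fall of 5, these counts are near the 19.2% of all tested genes that rose and the 16.7% that fell. The call of Rab3il1 there was lost when any of 5 of the 8 libraries was left out, with log2 fold changes of -0.87 to -0.72.

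**Figure D4:**
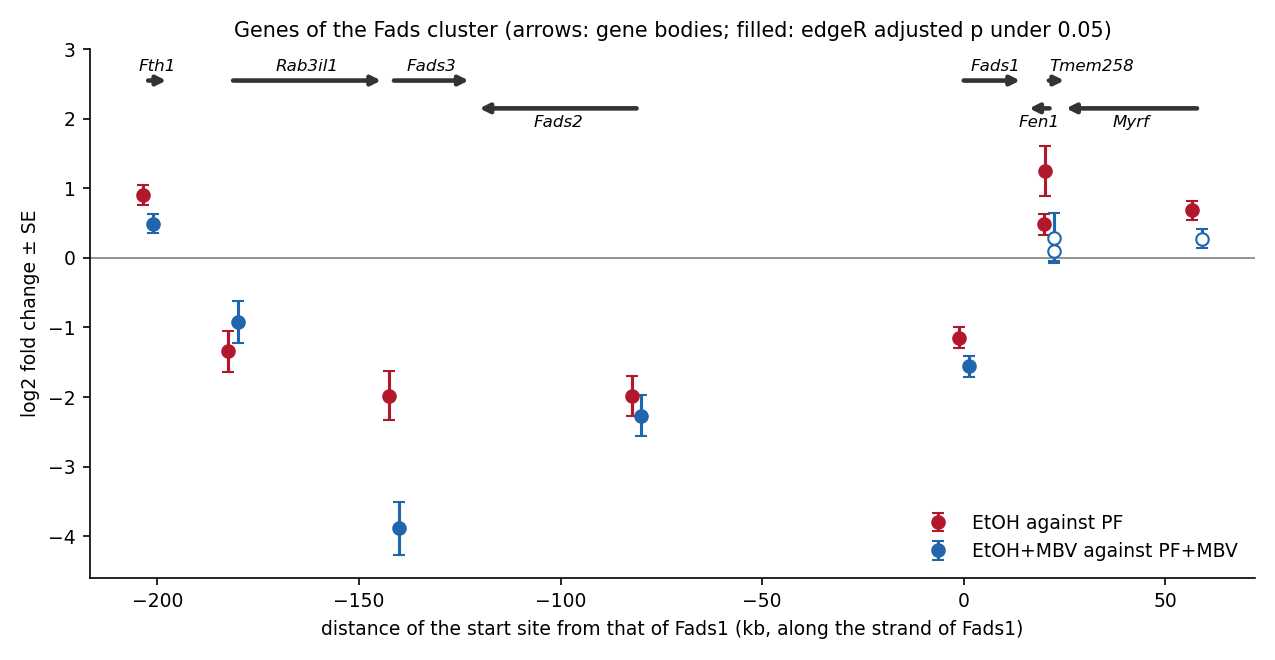
Log2 fold changes with their SE (vertical axis) of Fads1, Fads2, Fads3 and 5 tested neighbours, placed by the distance of their start sites from that of Fads1 in kb (horizontal axis), for the ethanol diet with vehicle (red) and with MBV (blue), with open points where the adjusted p was 0.05 or more. The 3 desaturase genes and Rab3il1 lie below 0 and Fth1, Myrf, Fen1 and Tmem258 above it.

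The other genes of the pathway were read from 7 lists of 100 genes, of which 91 were tested. In EtOH against PF 18 rose and 31 fell, with a median log2 fold change of -0.13. Of all tested genes 20.4% rose and 19.5% fell there, so the rises were near the share of all genes. In EtOH+MBV against PF+MBV 13 rose and 32 fell, with a median of -0.25, where 19.2% of all genes rose and 16.7% fell. For MBV on the pair-fed diet 2 rose and none fell, beside 0.752% and 1.03% of all genes. For MBV on the ethanol diet 1 rose and 2 fell, beside 1.24% and 1.45%. The counts of single lists given next are for EtOH against PF and stand beside its 20.4% and 19.5%.

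Among the other elongases and genes of the elongation cycle, 2 of 9 rose and 3 fell in EtOH against PF. Elovl6, which lengthens palmitate, fell (log2 fold change -1.70 ± 0.31 SE, adjusted p = 0.000561), as did Elovl3, which makes saturated and monounsaturated very long chains (log2 fold change -3.29 ± 0.56 SE, adjusted p = 0.000289), and Hsd17b12, the ketoacyl reductase that all the elongases share (log2 fold change -0.50 ± 0.14 SE, adjusted p = 0.00914). Hacd2, the dehydratase of the same cycle, rose (log2 fold change 0.92 ± 0.13 SE, adjusted p = 5.32e-05). Of 8 stearoyl desaturases and genes of electron supply, 3 rose and 3 fell. Scd1, which makes oleate, fell (log2 fold change -2.62 ± 0.49 SE, adjusted p = 0.000672), Cyb5r3, a reductase that feeds electrons to the desaturases through cytochrome b5, fell (log2 fold change -0.68 ± 0.13 SE, adjusted p = 0.000803), and Cyb5r1, its relative, rose (log2 fold change 2.25 ± 0.34 SE, adjusted p = 0.000122). EtOH 1 was the lowest EtOH library for Scd1, at 348 CPM against 2419 to 5009 CPM in the others. It was also the lowest for Elovl3, at 2.08 CPM against 18.8 to 24.2 CPM. All EtOH libraries were below all PF libraries for both genes.

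Of 12 other long-chain synthetases and thioesterases, 1 rose and 6 fell, with a median of -0.68. Acsl1, the main long-chain synthetase of the liver, fell (log2 fold change -1.43 ± 0.27 SE, adjusted p = 0.000722) where Acsl3 and Acsl4 rose, and the transport synthetases Slc27a1 and Slc27a2 fell (log2 fold changes -0.95 ± 0.20 and -0.91 ± 0.19). EtOH 1 had the lowest Acsl1 level, at 304 CPM against 648 to 924 CPM in the other EtOH libraries. Of 13 genes of peroxisomal chain shortening, the last step towards docosahexaenoic acid, 2 rose and 8 fell, with a median of -0.67. Acox3, an acyl-CoA oxidase, and Scp2, a thiolase and lipid carrier, fell (log2 fold changes -1.16 ± 0.13 and -1.34 ± 0.21), and Acox2, the oxidase of branched chains, rose (0.63 ± 0.11).

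Of 13 lysophospholipid acyltransferases, which place these fatty acids in membranes, 3 rose and 1 fell. Lpcat3, which prefers polyunsaturated chains, did not pass the test (log2 fold change 0.12 ± 0.11 SE, adjusted p = 0.407), Agpat2 fell (-0.65 ± 0.13), and Lpgat1 and Lclat1 rose (0.88 ± 0.24 and 0.34 ± 0.09 on the log2 scale). Of 21 genes of release and oxygenation, 4 rose and 6 fell. Pla2g12a, a secreted phospholipase, and Ephx1, the microsomal epoxide hydrolase, rose (2.40 ± 0.25 and 2.12 ± 0.23), and Ephx2, the soluble epoxide hydrolase that acts on fatty acid epoxides, fell (-1.24 ± 0.22).

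Of 15 genes of transcriptional control, 3 rose and 4 fell. Ppara stood at 664, 462, 654 and 511 CPM in PF and at 76.8, 252, 178 and 113 CPM in EtOH (log2 fold change -1.89 ± 0.31 SE, adjusted p = 0.000232). Srebf1 stood at 114, 303, 119 and 84.0 CPM in PF and at 46.9, 90.2, 72.6 and 42.2 CPM in EtOH (log2 fold change -1.30 ± 0.38 SE, adjusted p = 0.0123). PF 2 was the highest library of Srebf1, and without it the log2 fold change was -0.75 (adjusted p = 0.0688). Nr1h3, the liver X receptor alpha, fell (log2 fold change -0.90 ± 0.10 SE, adjusted p = 6.12e-06) and Nr1h2, the liver X receptor beta, rose (log2 fold change 0.49 ± 0.09 SE, adjusted p = 0.000374).

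**Figure D5:**
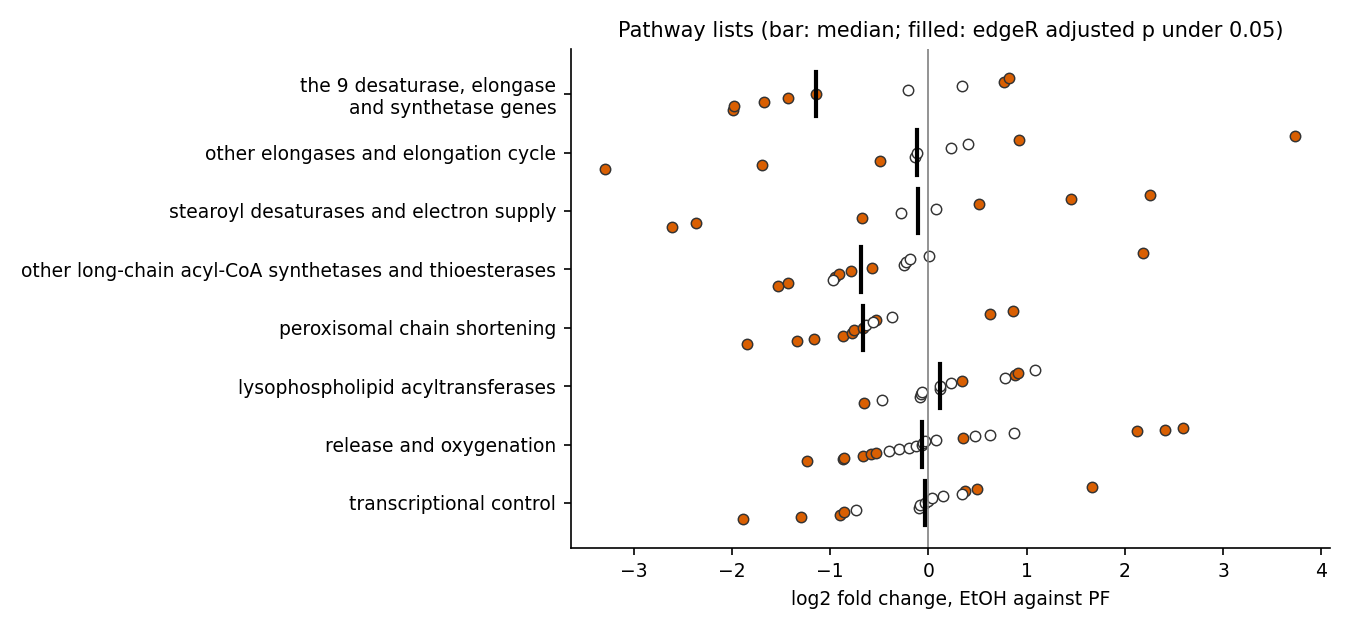
Log2 fold changes in EtOH against PF (horizontal axis) of the 9 genes and of the tested genes of the 7 pathway lists (rows), 1 point a gene, filled for an edgeR adjusted p under 0.05, with the median of each list as a bar. The medians are -1.15 for the 9 genes, -0.68 for the other synthetases and thioesterases, -0.67 for peroxisomal chain shortening and between -0.11 and 0.12 for the other lists.

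In EtOH+MBV against PF+MBV the genes of the elongation cycle named above kept their signs: Elovl6 at -1.54 ± 0.31, Elovl3 at -2.83 ± 0.54, Hsd17b12 at -0.55 ± 0.14 and Hacd2 at 0.79 ± 0.13 on the log2 scale, each past the test. So did Scd1 (-2.22 ± 0.49), Cyb5r1 (2.17 ± 0.34), Cyb5r3 (-0.89 ± 0.13), Ppara (-1.45 ± 0.31) and Srebf1 (-1.72 ± 0.38). Acsl1, with -0.41 ± 0.27, did not pass it there (adjusted p = 0.248). Insig1, which holds the SREBP precursors back, and Nr0b2, the small heterodimer partner, fell (log2 fold change -2.39 ± 0.31 SE, adjusted p = 5.42e-05; log2 fold change -2.39 ± 0.42 SE, adjusted p = 0.000544). Cyb5b, the outer mitochondrial cytochrome b5, and Lpcat3 fell (-1.17 ± 0.17 and -0.47 ± 0.11).

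For MBV on the pair-fed diet, beside Elovl5 and Acsl3, the rises in the lists were Abcd2, a peroxisomal transporter of very long-chain acyl-CoA (log2 fold change 1.08 ± 0.16 SE, adjusted p = 0.00472), and Nr0b2 (log2 fold change 1.75 ± 0.41 SE, adjusted p = 0.0384). On the ethanol diet Nr1h3 rose (log2 fold change 0.46 ± 0.10 SE, adjusted p = 0.0273), Insig1 fell (log2 fold change -1.19 ± 0.30 SE, adjusted p = 0.0445) and Elovl7, a gene of low level, fell (log2 fold change -3.52 ± 0.84 SE, adjusted p = 0.0382). The Elovl7 level was 16.7, 1.86, 1.07 and 0.774 CPM in EtOH, and without EtOH 1 the fall was -1.46 and did not pass (adjusted p = 0.143). This call was also lost without EtOH 2 or any of the EtOH+MBV libraries, and was kept in 6 of 16 alternatives. The call of Insig1 was lost without each of the same 6 libraries (-1.05 without EtOH 1, adjusted p = 0.114), and that of Nr1h3 without EtOH 1 (0.42, adjusted p = 0.062), EtOH 2 or EtOH+MBV 3. Insig1 kept its call in 6 of 16 alternatives and Nr1h3 in 10. Neither was called with the compared groups only, where no gene was. The call of Nr0b2 in PF+MBV was lost when any of 7 of the 8 libraries compared was left out. The interaction was below 0 for Insig1 (-2.29 ± 0.42), Abcd2 (-1.43 ± 0.23), Cyb5b (-0.89 ± 0.24), Lpcat3 (-0.59 ± 0.15) and Nr1h2 (-0.51 ± 0.12). Insig1 and Abcd2 kept this call in all 23 alternatives, Nr1h2 in 13, Lpcat3 in 11 and Cyb5b in 10.

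The genes whose log2 CPM ran most like the members over the 16 libraries were named for 6 of them. These correlations describe libraries that share their diet groups and scaling, and have no p. Closest to Fads1 were Rab5b (r = 0.973), Pcyt2 (0.973), a gene of phosphatidylethanolamine synthesis, and Proser3 (0.971). Closest to Fads2 were Umad1 (0.986), Wrap53 (0.973) and Apol7a (0.972). For Elovl2 they were F8, the coagulation factor (0.982), Umad1 (0.977) and Spag7 (0.974), and for Elovl5 Pgrmc2 (0.967), Pdzk1ip1 (0.966) and Rab5b (0.965). For Acsl3 they were Sntb1 (0.915), Hn1l (0.879) and Tram1 (0.879), and for Acsl4 Taf1d (0.955), Foxj3 (0.944) and Pck2 (0.938), the mitochondrial phosphoenolpyruvate carboxykinase.

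Some cell type markers passed the test in the diet contrasts. In EtOH against PF their counts stand beside 20.4% of all tested genes that rose and 19.5% that fell. In EtOH+MBV against PF+MBV these shares were 19.2% and 16.7%. Counts of 1 in a list of 5 to 8 markers are near or below these shares. In EtOH against PF, 5 of 8 stellate cell markers rose and 1 fell, with summed levels of 224 to 246 CPM in PF, 219.8 to 412 in EtOH, 188 to 260.0 in EtOH+MBV and 262 to 301 CPM in PF+MBV. Of 8 endothelial markers 2 rose and 5 fell (406 to 453 CPM in PF, 341 to 403 in EtOH, 346 to 438 in EtOH+MBV and 420.5 to 445 in PF+MBV), and of 8 macrophage markers 1 rose (300.2 to 406 CPM in PF, 191 to 558 in EtOH, 189 to 276 in EtOH+MBV and 320.0 to 375 in PF+MBV). Of 7 tested hepatocyte markers 1 rose and 1 fell, of 5 cholangiocyte markers 1 rose, of 5 monocyte and neutrophil markers 1 fell, and none of 3 lymphocyte markers passed the test. In EtOH+MBV against PF+MBV, 3 of 7 hepatocyte markers rose and none fell. There none of 8 stellate cell markers rose and 2 fell, and none of 8 macrophage markers rose and 3 fell. Both sums were lower in EtOH+MBV than in PF+MBV, without overlap. Of 8 endothelial markers 1 rose and 5 fell, and of 5 cholangiocyte markers 1 rose and 1 fell. Of 5 monocyte and neutrophil markers 1 fell, and of 3 lymphocyte markers 1 fell. Adipocyte markers summed to 6.28 to 19.4 CPM in PF, 3.28 to 66.6 in PF+MBV, 0 to 0.242 in EtOH and 0 to 0.318 CPM in EtOH+MBV, with Lep at 0 in every library. The part of these cell types in the differences of the 9 genes was not tested.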

How the data were processed

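Each of the 16 libraries has a table of reads per gene symbol. The values are raw counts as the authors deposited them, not normalized. Trimmomatic, STAR and the build mm10 are named per the submitters' processing notes. Versions, settings and the gene annotation: not given in the sources used here. Of 3 count columns the unstranded one was used, because 1 of the stranded columns held 50.58% to 51.79% of their reads. The 4 rows that are no gene were left out: reads without a feature, for example, were 9.397% to 10.87% of a library.

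Genes were kept by filterByExpr (minimum count 10) and libraries scaled by TMM (factors 0.863 to 1.269). A group-means model of all 16 libraries was fitted with edgeR 4.0.16 (quasi-likelihood, R 4.3.3), with 4 pairwise contrasts and the interaction, Benjamini-Hochberg adjustment over all 12901 genes and a threshold of 0.05. The contrasts share groups, so they are not independent. Correlations used log2 CPM with a prior count of 2. DESeq2 1.42.0, limma 3.58.1, other scalings, other sets of libraries and a replicate block were alternatives, and the fit was tested on simulated data. Exon lengths and positions came from GENCODE M21 (23376 symbols matched).

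The genes and lists were chosen with earlier results of these data known. Named are all 9 genes in every contrast, up to 3 genes of a list with the smallest p among those that passed, Scd1, Elovl6, Acsl1, Srebf1, Ppara, Lpcat3 and Hsd17b12, and the 3 genes most like each of 6 of the 9; the text leaves out some of these.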

Additional observations from a re-analysis of the deposited data

Results flagged for a closer look

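Among 48 group levels and ratios of the 9 genes, 3 had a library far from the others of its group, measured as its gap to the nearest library over the range of the group (Dixon's test at the 95% level). Chance alone sets about 1 in 20 groups apart. Fads1 in EtOH+MBV 1 stood at 511 CPM against 367 to 378 CPM, a share of 0.920. Fads2 in the same library stood at 445 CPM against 150.1 to 192 CPM, a share of 0.858. The ratio of Acsl4 to Acsl3 in PF 2 was 4.68 against 6.55 to 6.90, a share of 0.842.

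For 7 genes, out of the 9 and the 91 tested genes of the pathway lists, the effect of MBV differed between the diets by the interaction test of edgeR. All 7 differences were below 0, where 2.09% of all tested genes were called below 0 and 2.02% above. Of 23 alternatives, 9 kept the call of Fads3, 10 that of Cyb5b, 11 that of Lpcat3, 13 that of Nr1h2 and 20 that of Acsl3. Insig1 and Abcd2 kept theirs in all 23. The log2 MBV effect of Fads3 was 0.91 on the pair-fed diet and -0.99 on the ethanol diet, a difference of -1.91 ± 0.50 SE (adjusted p = 0.0425). That of Acsl3 was 0.93 on the pair-fed diet and -0.07 on the ethanol diet, a difference of -0.998 ± 0.22 SE (adjusted p = 0.0239). Abcd2, the peroxisomal transporter, had 1.08 on the pair-fed diet and -0.35 on the ethanol diet, a difference of -1.43 ± 0.23 SE (adjusted p = 0.0097). Insig1 had 1.096 on the pair-fed diet and -1.19 on the ethanol diet, a difference of -2.29 ± 0.42 SE (adjusted p = 0.0137). For Cyb5b it was 0.67 on the pair-fed diet and -0.21 on the ethanol diet, a difference of -0.89 ± 0.24 SE (adjusted p = 0.048), for Lpcat3 0.31 on the pair-fed diet and -0.28 on the ethanol diet, a difference of -0.59 ± 0.15 SE (adjusted p = 0.0389) and for Nr1h2 0.26 on the pair-fed diet and -0.25 on the ethanol diet, a difference of -0.51 ± 0.12 SE (adjusted p = 0.0315).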

How the results depend on the processing

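All 16 alternatives kept the 7 calls of EtOH against PF and the falls of Fads1, Fads2, Fads3, Elovl2 and Elovl5 in EtOH+MBV against PF+MBV, and none reversed a call. Of 783 values of the 9 genes under an alternative, 748 stayed on their side of the threshold, 25 lost and 10 gained a call. Over all named genes 2095 of 2220 stayed, 109 lost and 16 gained a call, and 49 changed sign with no call on either side.

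The number of the 9 genes called for MBV on the ethanol diet was 0 and 0 to 1 with a library left out in turn. On the pair-fed diet it was 2, 4 with the compared groups only, 3 with both first ethanol libraries left out and 1 to 2 with a library left out. For the interaction it was 2, 1 with library totals, 1 with limma voom, 4 with both first ethanol libraries left out and 0 to 4 with a library left out. Counts over all genes moved more, and the cause was not tested. For MBV on the ethanol diet 347 genes were called, 196 with library totals, 905 with DESeq2, 0 with the compared groups only, 180 with both first ethanol libraries left out and 8 to 1169 with a library left out. On the pair-fed diet it was 230, 665 with DESeq2, 1119 with the compared groups only, 1022 with both first ethanol libraries left out and 45 to 689 with a library left out. For the interaction it was 530, 349 with library totals, 1113 with DESeq2, 887 with both first ethanol libraries left out and 168 to 1088 with a library left out.

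Scaling by library totals shifted the median of all genes by -0.12 in EtOH+MBV against EtOH, -0.14 in EtOH+MBV against PF+MBV and -0.18 in the interaction. Higher and lower calls became 60 and 136 (160 and 187 with TMM), 1446 and 2686 (2478 and 2155) and 93 and 256 (261 and 269). No direction of a called member turned.

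With the replicate block, 205 genes were called for MBV on the ethanol diet, 4883 in EtOH against PF, 222 in PF+MBV against PF, 4475 in EtOH+MBV against PF+MBV and 514 in the interaction. Over all tested genes, deviations from the group means were little correlated between libraries with the same number. Their 24 correlations ran from -0.12 to 0.17 with a median of 0.01, and the 72 of unlike numbers from -0.24 to 0.33. Such correlations cannot show a batch or pairing that moves few genes, and the labels name neither. EtOH 1 and EtOH+MBV 1 were each the highest of their group for Fads2, Fads3 and Elovl2. For Fads1 and Elovl5 this held for EtOH+MBV 1 alone. With 48 reads in the lowest library, Fads3 was the least precise of the 9 genes.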
